A study of Mus musculus with 16 samples.

Results

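The genes described here are 10 heat shock proteins and chaperones, chosen by name from the 46078 genes counted in each library: Hspa8, Hspa1a, Hspa1b, Hspa5 and Hspa9 of the Hsp70 family, Hsp90aa1 and Hsp90ab1 of the Hsp90 family, the chaperonin genes Hspd1 and Hspe1, and the J-domain gene Dnajb1. All 10 were found, and their levels were compared across 16 RNA sequencing libraries of erythroblasts sorted from steady-state mouse bone marrow. Polychromatic erythroblasts (Poly-E) and the more mature orthochromatic erythroblasts (Ortho-E) were separated by flow cytometry for Ter119 and CD44, and both were collected from Ypel4+/+ as well as Ypel4-/- mice, so that 4 groups of 4 libraries resulted. Ypel4-/- mice are homozygous for a gene-trap allele of Ypel4 present in every cell, so the blood cells are not the only cells that lack it. The labels give the mice of both genotypes 1 strain, C57BL/6N-A<tm1Brd> with the allele Ypel4<tm1a(EUCOMM)Wtsi> from WtsiIeg, no treatment is given for any group, and age is not given in the sources used here. The labels number the libraries within a group and do not name the mice, so p-values measure the spread between these libraries.

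Hsp70 proteins bind short hydrophobic stretches of unfolded proteins and release them in a cycle driven by ATP, which J-domain proteins such as Dnajb1 start and nucleotide exchange factors such as Bag3 and Hsph1 complete. Hspa8 is the constitutive cytosolic Hsp70, Hspa1a and Hspa1b encode the Hsp70 that heat shock factor 1 induces under stress, Hspa5 (BiP) is the Hsp70 of the endoplasmic reticulum, and Hspa9 (mortalin) is the Hsp70 of mitochondria. Hsp90aa1 and Hsp90ab1 encode the stress-inducible and the constitutive cytosolic Hsp90, and Hspd1 (Hsp60) and Hspe1 (Hsp10) form the folding chamber of the mitochondrial matrix. In erythroblasts, Hsp70 is known for guarding the transcription factor GATA1 from caspase cleavage while the cell makes haemoglobin and later loses its organelles.

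The promoters of 4 members are shown because Hspa1a, Hspa1b and Hspa5 were the members that rose in Ortho-E under both scalings used, and because Hspe1, which was not called there with the main scaling, held, with its head-to-head neighbour Hspd1, the most heat shock element matches of those searched. Each run is the 250 bases before the RefSeq start site on GRCm38.p6, written 5′ to 3′ on the strand of the gene, and capitals mark matches to GAANNTTC or TTCNNGAA (paired units of the heat shock element, which read the same on both strands) or to the endoplasmic reticulum stress element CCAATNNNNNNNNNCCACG (searched on both strands).
Hspa1a, chr17:34972157-34972406, minus strand: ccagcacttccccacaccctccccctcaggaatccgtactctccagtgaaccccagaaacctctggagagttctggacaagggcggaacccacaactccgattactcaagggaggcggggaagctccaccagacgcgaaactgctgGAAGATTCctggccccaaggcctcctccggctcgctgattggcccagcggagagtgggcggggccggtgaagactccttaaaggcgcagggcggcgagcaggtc
Hspa1b, chr17:34959239-34959488, minus strand: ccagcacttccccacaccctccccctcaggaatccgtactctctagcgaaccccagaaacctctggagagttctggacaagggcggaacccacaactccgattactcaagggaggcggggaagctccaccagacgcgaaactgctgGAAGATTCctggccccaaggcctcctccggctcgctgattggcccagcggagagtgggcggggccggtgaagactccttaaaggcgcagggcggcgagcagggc
Hspa5, chr2:34771840-34772089, plus strand: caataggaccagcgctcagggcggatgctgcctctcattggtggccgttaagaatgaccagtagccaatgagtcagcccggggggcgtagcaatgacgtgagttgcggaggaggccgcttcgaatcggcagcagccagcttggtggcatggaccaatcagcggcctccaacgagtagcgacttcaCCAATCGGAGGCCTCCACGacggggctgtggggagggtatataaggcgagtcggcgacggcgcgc
Hspe1, chr1:55087898-55088147, plus strand: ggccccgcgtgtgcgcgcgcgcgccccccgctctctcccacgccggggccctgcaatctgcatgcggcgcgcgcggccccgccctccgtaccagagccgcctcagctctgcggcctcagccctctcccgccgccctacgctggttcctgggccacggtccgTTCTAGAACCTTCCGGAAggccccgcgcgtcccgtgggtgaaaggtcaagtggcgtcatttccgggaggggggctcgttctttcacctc
The Hspa1a and Hspa1b runs were identical at 247 of 250 bases, and each held 1 heat shock element pair, which began 104 bases before the start site. The Hspa5 run held 1 endoplasmic reticulum stress element, 65 bases before the start site, and no heat shock element pair. The Hspe1 run held 3 overlapping pairs, which form 2 overlapping matches to the longer forms GAANNTTCNNGAA or TTCNNGAANNTTC. One of the 2 Hspd1 promoters listed by RefSeq lies on the opposite strand (chr1:55087933-55088182), overlaps the Hspe1 window and held the same matches, and neither of the 2 Dnajb1 promoters held any of these motifs. Among 32851 RefSeq promoter windows of the same length, 12.8% held a paired heat shock element, 0.466% a longer form and 0.113% the endoplasmic reticulum stress element. Promoters of Hspa8, Hspa9, Hsp90aa1 and Hsp90ab1 were not searched. A match describes these letters and does not show that a factor binds there.

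Some members can lose reads to near-identical copies, because a read with more than 1 place in the genome or within more than 1 gene was not counted. Of the 75-base windows along the longest coding transcript in GENCODE M21, 68.6% of those of Hspa8 also occurred in transcripts of 11 other genes, mostly pseudogenes. The share was 61.7% for Hspa1a and 55.8% for Hspa1b, which mainly match each other and lie 9951 bases apart on chromosome 17. It was 53.1% for Hsp90aa1, 33.7% for Hspd1 and 29.1% for Hspe1. The other 4 members were nearly unique, with 0.736% for Hsp90ab1, 0.336% for Hspa9 and no shared window for Hspa5 or Dnajb1. Levels of the 6 genes with shared windows are therefore uncertain, and reads of Hspa1a and Hspa1b cannot be separated where their sequences match. Exons of Hspd1 and Hspe1 overlap by 112 bases on chromosome 1, and 19.0% of the exon bases of Hspa1a overlap Gm20481. Of the exon bases of Hspa8, 262 (6.3%) overlap Snord14c, Snord14d and Snord14e.

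The libraries held 2670173 to 12451234 counts. Levels are given in CPM, the counts of a gene relative to all counts of its library, scaled by TMM. TMM adjusts the library totals so that most genes differ little between libraries, and which genes drive this adjustment here was not tested. Ypel4 itself was at 490 to 716 CPM in Ypel4+/+ Poly-E against 9.89 to 23.6 CPM in Ypel4-/- Poly-E. In Ortho-E it was at 4429 to 5440 CPM against 174.5 to 224 CPM, so no library went against its genotype label. All 10 erythroid markers that were found had counts in every group, and their summed level was 58140 to 70500 CPM in Poly-E and 234100 to 321900 CPM in Ortho-E. Between the populations this scaling matters: with TMM the median log2 difference of all genes was -0.19 in Ypel4+/+ and -0.09 in Ypel4-/- mice, but with library totals it was -1.45 and -1.47, a shift of -1.26 and -1.38. The share of calls that were higher in Ortho-E was 45.1% in Ypel4+/+ and 48.4% in Ypel4-/- with TMM, against 14.7% and 15.5% with library totals. Differences between populations are therefore also given relative to the median of all genes. A fall in CPM in a sorted population cannot tell fewer cells of a type from less RNA per cell.

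Between Poly-E and Ortho-E of Ypel4+/+ mice, the chaperone genes moved apart rather than together. The endoplasmic reticulum Hsp70 Hspa5 rose 3.93-fold, the inducible pair Hspa1a and Hspa1b went from nearly no counts to a low level, and the cytosolic and mitochondrial genes Hspa8, Dnajb1, Hsp90aa1, Hspa9 and Hspd1 fell. By edgeR, 9 of the 10 members were called at an adjusted p of 0.05 or less, 4 higher and 5 lower, where 58.5% of all 11747 genes tested were called, 26.4% higher and 32.1% lower. The same 9 members had CPM that did not overlap between the populations, against 53.2% of all genes, 22.6% higher and 30.6% lower. The members' median log2 difference was -0.36, beside -0.19 for all genes. With 9 of 10 called against 58.5%, most of what follows concerns the size and direction of each gene's difference.

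**Figure D1:**
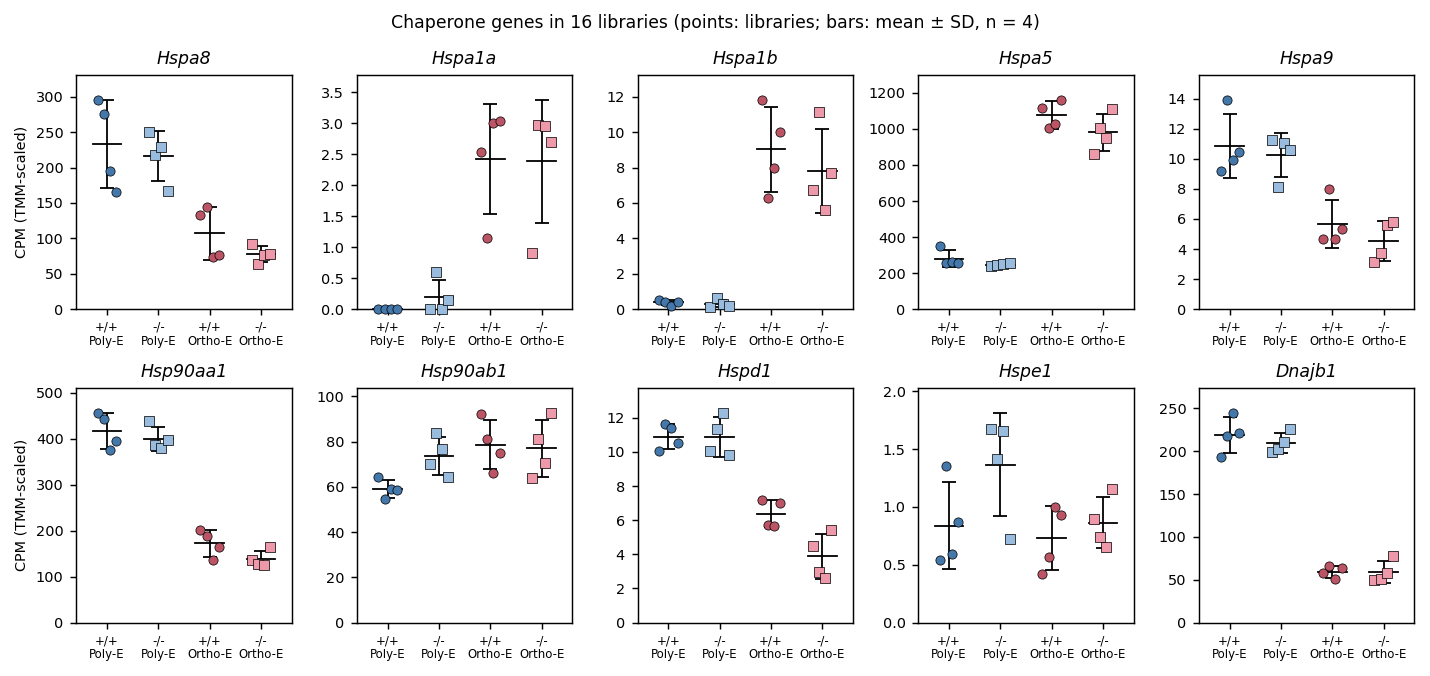
Level of each of the 10 chaperone genes in 16 libraries, in CPM scaled by TMM (vertical axes start at 0 and differ between genes). Points are libraries and bars are the mean ± SD of 4 libraries per group; Hspa5 lies at 1003 to 1162 CPM in Ypel4+/+ Ortho-E, above every Poly-E library, while Dnajb1 lies at 50.6 to 66.2 CPM there, below every Poly-E library.

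Hspa5 (chr2:34771970-34777547, plus strand, 9 exons, GRCm38), which holds newly made secretory and membrane proteins for folding, was at 349, 254, 263 and 258 CPM in the 4 Poly-E libraries of Ypel4+/+ mice and at 1117, 1003, 1026 and 1162 CPM in the Ortho-E libraries. Every Ortho-E library was above every Poly-E library. The log2 fold change was 1.97 (SE 0.13, adjusted p = 4.92e-13 by edgeR), and it was 2.17 above the median of all genes. With library totals the rise was smaller, at 0.69, and still called (adjusted p = 5.84e-06 by edgeR). Hspa5 took 19.97% to 25.3% of the 10 members' counts in Poly-E and 66.6% to 74.6% in Ortho-E. By library totals, all 10 members together had 1738 to 1997 CPM in Poly-E and 916 to 988 CPM in Ortho-E of Ypel4+/+ mice, whereas with TMM the sum was 1120 to 1379 CPM in Poly-E and 1375 to 1627 CPM in Ortho-E, so the direction of the members' sum depends on the scaling.

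The other chaperones of the endoplasmic reticulum did not share this direction. Of 17 tested, 2 rose and 12 fell in Ypel4+/+ mice, with a median log2 difference of -1.35 beside -0.19 for all genes. Of those called, P4hb, the disulfide isomerase subunit, fell furthest, by 1.89 (SE 0.18). The lowest log2 difference of the list, -2.19, was not called. Dnajb9, a J-domain partner of Hspa5, rose most, by 1.37 (SE 0.33), and Calr, a lectin chaperone named after its values were seen, rose by 1.27. With library totals, none of the 17 was called higher and 14 were called lower, whereas Hspa5 was called higher under both scalings.

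Hspa1a (chr17:34969190-34972156) and Hspa1b (chr17:34956436-34959238), each a gene of 1 exon on the minus strand, were nearly undetected in Poly-E. Hspa1a had 0 counts in each of the 4 Poly-E libraries of Ypel4+/+ mice and 6, 2, 9 and 13 counts in the Ortho-E libraries, or 2.54, 1.14, 3.00 and 3.03 CPM. Set against a floor of 3 counts over the Poly-E group, this is at least 32.7-fold higher with TMM and at least 13.7-fold higher with library totals, and edgeR called it (adjusted p = 3.03e-07). Hspa1b had 3, 2, 3 and 5 counts in Poly-E and 28, 11, 24 and 43 counts in Ortho-E, or 0.539, 0.387, 0.199 and 0.435 CPM against 11.8, 6.28, 7.996 and 10.03 CPM. The groups did not overlap for either gene. The log2 fold change of Hspa1b was 4.65 (SE 0.47, adjusted p = 5.7e-11 by edgeR) with TMM and 3.37 with library totals. Even so, at 6.28 to 11.8 CPM Hspa1b stayed far below Hspa8 in every Ortho-E library.

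Among the partners of the Hsp70 cycle, the same direction was seen for a few genes. Of the 18 other Hsp70 proteins and nucleotide exchange factors tested, 3 rose and 7 fell in Ypel4+/+ mice, with a median of -0.54. Those that rose were Bag3, an exchange factor that binds Hsp70 (3.08, SE 0.24), Hsph1, an Hsp110 exchange factor (2.48), and Hspa4 (0.96); the last 2 were named after their values were seen. Bag5 fell furthest, by 2.53 (SE 0.68), on 5 counts in Ortho-E. With library totals 2 of the 18 were called higher and 14 lower: Bag3 (1.79) and Hsph1 (1.19) were still higher, while Hspa4 was called lower (-0.33). Of 5 stress regulators tested, 3 rose and none fell, namely Hsf2, a heat shock factor (2.34, SE 0.66, on 10 counts in Poly-E), Xbp1 (1.42, named after its values were seen) and Atf6, a membrane-bound transcription factor of the unfolded protein response (1.13, SE 0.14). With library totals none of these 5 was called higher and 2 were called lower. Hsf1 was at 1.26 to 2.90 CPM in Poly-E and 0.845 to 2.33 CPM in Ortho-E of Ypel4+/+ mice.

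With TMM, though not with library totals, most genes that respond quickly to cell handling rose, as the inducible Hsp70 genes did. Of 9 immediate-early genes tested, 6 rose and 1 fell in Ypel4+/+ mice, from Egr1 at 1.69 (SE 0.43) to Dusp1 at -0.97 (SE 0.16), and with library totals 1 was called higher and 2 lower. Their summed level was 502 to 619 CPM in Poly-E and 1363 to 1620 CPM in Ortho-E, and none of the 10 genes listed was at 0 in these groups. Most of this sum was Btg2, an antiproliferative gene, with a mean of 432 CPM in Poly-E and 1354 CPM in Ortho-E, while Fos, Fosb, Junb and Egr1 had means of 6.36 CPM or less in both. Their part in the rise of Hspa1a and Hspa1b was not tested. Markers of other blood cells were also counted in Ypel4+/+ mice, with TMM unless stated. The 8 myeloid markers summed to 2.52 to 3.59 CPM in Poly-E and 5.49 to 20.5 CPM in Ortho-E, with Elane at 0 in Ortho-E, 2 of 5 tested rose (Ltf 3.30, S100a8 2.68) and none fell. The 5 lymphoid markers summed to 8.51 to 13.5 and 14.8 to 20.3 CPM, with Cd3e and Cd3g at 0 and 1 of 3 tested higher (Cd79b, 1.09). The 4 megakaryocyte markers summed to 27.5 to 35.6 and 97.1 to 113 CPM, with Pf4 at 0 in Ortho-E and 1 of 2 tested higher. That 1 was Itga2b (2.24), which carried the sum at 20.8 CPM in Poly-E and 95.9 CPM in Ortho-E, while Gp9 was at 10.4 and 11.03 CPM. With library totals, 1 of 5 myeloid markers was higher and none lower, none of 3 lymphoid markers was higher and 2 were lower, and 1 of 2 megakaryocyte markers was higher and 1 lower. Of 10 erythroid markers, 8 rose and 2 fell, from Hba-a2 at 2.64 to Klf1 at -0.40. The sort gated on the erythroid antigen Ter119. The study also lists antibodies to CD3, B220 and Gr-1 for its cytometry, although the labels name Ter119 and CD44 alone for these sorts. The part of other blood cells in the chaperone differences was not tested.

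The constitutive cytosolic Hsp70 gene fell. Hspa8 (chr9:40800984-40805200, plus strand, 9 exons) was at 296, 275, 195 and 166 CPM in Poly-E and at 134, 145, 74.3 and 76.5 CPM in Ortho-E of Ypel4+/+ mice. In both populations libraries 1 and 2 were higher than libraries 3 and 4, yet the populations did not overlap. The log2 fold change was -1.10 (SE 0.28, adjusted p = 0.0103 by edgeR), and it was 0.91 below the median of all genes. Without Poly-E library 1 it was -0.84 (adjusted p = 0.0792) and without Poly-E library 2 it was -0.90 (adjusted p = 0.061), so the call of the fit without pairing was lost without either. In these mice same-numbered libraries deviated together, although the labels name no shared mouse. With the number as a block the log2 fold change was -1.11 (adjusted p = 5.43e-31 by edgeR). The edgeR fit shares its estimate of spread over all genes, so this p does not measure the spread of the 4 Hspa8 pairs alone. Over all alternatives the adjusted p ranged from 5.43e-31 to 0.0792.

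Dnajb1 (chr8:83608175-83611902, plus strand, 3 exons), the J-domain protein that hands clients to cytosolic Hsp70, showed the clearest fall. It was at 194, 218, 245 and 221 CPM in Poly-E and at 57.5, 66.2, 50.6 and 63.7 CPM in Ortho-E of Ypel4+/+ mice, with no overlap. The log2 fold change was -1.85 (SE 0.13, adjusted p = 1.6e-12 by edgeR), 1.66 below the median of all genes. Of the 32 other J-domain genes tested, 9 rose and 17 fell, from Dnajc28 at 3.06 (SE 0.21) to Dnajc30 at -3.69 (SE 1.51, on 1 count in Ortho-E), with a median of -0.62. With library totals 5 of them were higher and 24 lower. Dnajb1 fell along with Hspa8, the constitutive Hsp70 gene of the cytosol, while Hspa1a and Hspa1b rose. Dnajb2, Dnajb4, Dnaja4 and Dnajb6, J-domain genes named after their values were seen, were among those higher with library totals. Their log2 differences were then 0.58, 1.24, 1.06 and 1.01 in Ypel4+/+ mice. With TMM, Dnajb2 had a mean of 524 CPM in Poly-E and 1860 CPM in Ortho-E of these mice, above Dnajb1 in both.

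The Hsp90 pair, Hsp90aa1 (chr12:110690605-110702728) and Hsp90ab1 (chr17:45567775-45573271), both on the minus strand with 11 exons, separated. Hsp90aa1 was at 456, 443, 375 and 394 CPM in Poly-E and at 201, 189, 135 and 163 CPM in Ortho-E of Ypel4+/+ mice, with no overlap and a log2 fold change of -1.25 (SE 0.13, adjusted p = 4.44e-09 by edgeR). Hsp90ab1 was at 64.3, 54.6, 59.2 and 58.5 CPM in Poly-E and at 92.1, 81.1, 66.3 and 74.9 CPM in Ortho-E, where the lowest Ortho-E library was just above the highest Poly-E library. Its log2 fold change was 0.44 (SE 0.13, adjusted p = 0.00542 by edgeR) with TMM but -0.85 with library totals (adjusted p = 2.15e-06), so its direction depends on the scaling. Relative to the median of all genes it was 0.63 higher with TMM and 0.60 higher with library totals. A ratio within a library does not depend on the scaling. Per kilobase of exon, Hsp90aa1 stood at 5.41, 6.19, 4.83 and 5.14 times Hsp90ab1 in Poly-E and at 1.66, 1.78, 1.56 and 1.66 times in Ortho-E, with no overlap. Of the 19 other Hsp90 proteins and co-chaperones tested, 1 rose and 12 fell, with a median of -0.87. Unc45a, a myosin co-chaperone of Hsp90, was the 1 that rose (1.14, SE 0.24), and with library totals it was at -0.14 and none of the 19 was called higher. Nudc, a co-chaperone of nuclear migration, fell furthest, by 2.38 (SE 0.17).

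**Figure D2:**
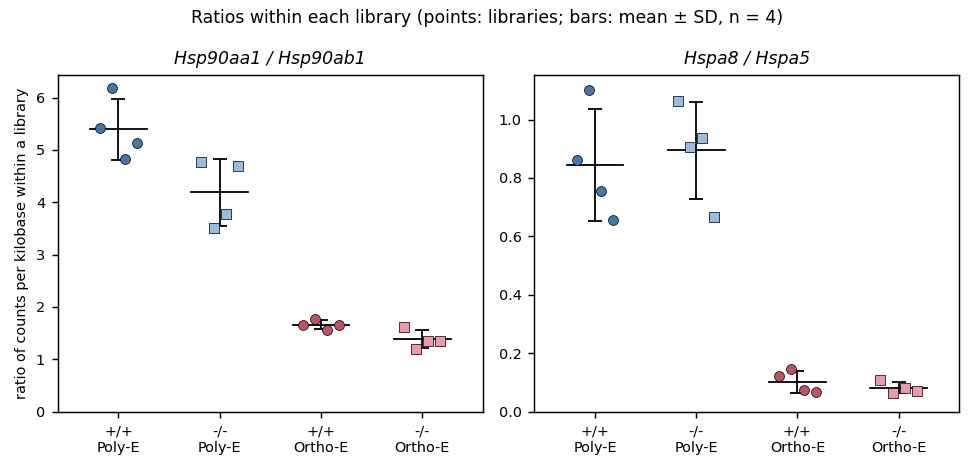
Ratio of Hsp90aa1 to Hsp90ab1 (left) and of Hspa8 to Hspa5 (right) within each library, from counts per kilobase of exon, so that the scaling between libraries plays no part. Points are libraries and bars the mean ± SD of 4 per group; both ratios are lower in every Ortho-E library than in any Poly-E library, and the Hspa8 to Hspa5 ratio is 0.656 to 1.10 in Ypel4+/+ Poly-E and 0.0670 to 0.147 in Ypel4+/+ Ortho-E.

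The mitochondrial genes Hspa9 (chr18:34937414-34954357, minus strand, 17 exons), Hspd1 (chr1:55077835-55088243, minus strand, 12 exons) and Hspe1 (chr1:55088132-55091307, plus strand, 4 exons) were low throughout. Hspa9 was at 9.16, 13.9, 9.92 and 10.4 CPM in Poly-E and at 4.65, 7.99, 4.66 and 5.36 CPM in Ortho-E of Ypel4+/+ mice, with no overlap and a log2 fold change of -0.93 (SE 0.25, adjusted p = 0.00159 by edgeR). Hspd1 was at 10.1, 11.6, 11.4 and 10.5 CPM in Poly-E and at 7.18, 5.71, 5.66 and 6.997 CPM in Ortho-E, also with no overlap and with a log2 fold change of -0.72 (SE 0.22, adjusted p = 0.00512 by edgeR). Its partner Hspe1 had 3, 7, 9 and 10 counts in Poly-E and 1, 1, 3 and 4 counts in Ortho-E, or 0.539, 1.36, 0.595 and 0.870 CPM against 0.422, 0.571, 1.00 and 0.933 CPM. The groups overlapped, and the log2 difference of -0.00 had a 95% interval from -1.30 to 1.30, so a change of up to more than a doubling in either direction was not detectable at this depth. Of the 10 other mitochondrial chaperones and proteases tested, 2 rose and 6 fell, with a median of -0.84. Hscb, which delivers iron-sulfur clusters, rose most (2.84, SE 0.15) and was still higher with library totals (1.56), Clpx, named after its values were seen, was at 0.85 with TMM and at -0.43 with library totals, called both times, and the protease Lonp1 fell furthest, by 2.39 (SE 0.32). With library totals 1 of the 10 was called higher and 9 lower.

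In Ypel4-/- mice, whose libraries are not shared with the comparison above, 8 of the 10 members were called between the populations, 3 higher and 5 lower, where 61% of all 11973 genes tested were called, 29.5% higher and 31.5% lower. The same 8 had CPM that did not overlap, against 55.5% of all genes, 23.1% higher and 32.4% lower. The members' median log2 difference was -0.66, beside -0.09 for all genes.

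Hspa5 was at 239, 244, 249 and 255 CPM in Ypel4-/- Poly-E against 863, 1006, 948 and 1109 CPM in Ypel4-/- Ortho-E, and rose by 2.16 on the log2 scale (SE 0.11, adjusted p = 3.24e-17 by edgeR). Hspa1b had 1, 3, 2 and 4 counts in Poly-E and 15, 30, 17 and 40 counts in Ortho-E, and rose by 4.91 (SE 0.53, adjusted p = 3.35e-12 by edgeR). Hspa1a had 0, 3, 0 and 3 counts in Poly-E and 2, 8, 9 and 14 counts in Ortho-E, and rose by 3.93 (SE 0.78, adjusted p = 3.21e-06 by edgeR), or by 4.66 without Poly-E library 2, which held 3 of the 6 Poly-E counts. In these mice too, then, the genes that rose were the endoplasmic reticulum and the inducible Hsp70 genes.

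The genes that fell in Ypel4-/- mice were Hspa8, Dnajb1, Hsp90aa1, Hspd1 and Hspa9. Hspa8 was at 250.1, 217, 229 and 167 CPM in Poly-E and at 92.2, 64.2, 76.9 and 77.8 CPM in Ortho-E, and fell by 1.30 (SE 0.13, adjusted p = 3.67e-10 by edgeR). Dnajb1 was at 199, 202, 211 and 226 CPM in Poly-E and at 49.5, 51.2, 57.5 and 77.2 CPM in Ortho-E, and fell by 1.66 (SE 0.13, adjusted p = 6.26e-13 by edgeR). Hsp90aa1 was at 438, 386, 379.5 and 397 CPM and at 135, 127, 125 and 165 CPM, and fell by 1.37 (SE 0.12, adjusted p = 6.05e-12 by edgeR). Of the mitochondrial genes, Hspd1 fell by 1.27 (SE 0.25) from 10.05, 11.3, 12.3 and 9.82 CPM to 4.50, 2.97, 2.63 and 5.40 CPM. Hspa9 fell by 0.97 (SE 0.24) from 11.3, 8.10, 11.04 and 10.6 CPM to 3.15, 3.71, 5.59 and 5.79 CPM.

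The remaining 2 members were not called in Ypel4-/- mice. Hsp90ab1 was at 69.9, 83.8, 76.8 and 64.5 CPM in Poly-E and at 63.9, 81.2, 70.4 and 92.6 CPM in Ortho-E, groups that overlapped, with a log2 difference of 0.24 (SE 0.13, adjusted p = 0.108 by edgeR) and of -1.18 with library totals (adjusted p = 1.24e-09). With the library number as a block the difference was also 0.24 and was called (adjusted p = 0.0363 by edgeR), and its adjusted p over all alternatives ranged from 1.24e-09 to 0.668. Hspe1 had 11, 7, 12 and 14 counts in Poly-E and 2, 2, 2 and 6 counts in Ortho-E, with a log2 difference of -0.34 (95% interval -1.44 to 0.76). The Hsp90aa1 to Hsp90ab1 ratio per kilobase was 4.78, 3.52, 3.77 and 4.70 in Poly-E against 1.61, 1.20, 1.36 and 1.36 in Ortho-E, so its drop was present in these mice as well.

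**Figure D3:**
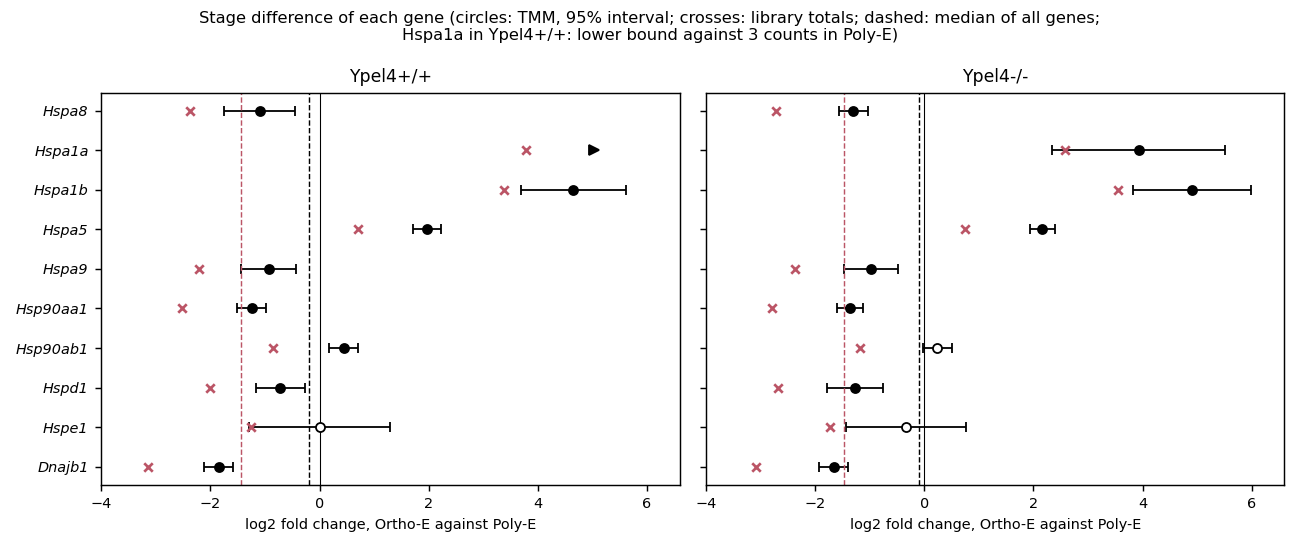
Log2 fold change of each chaperone gene between Ortho-E and Poly-E in Ypel4+/+ (left) and Ypel4-/- mice (right). Circles are TMM-scaled edgeR estimates with 95% intervals (filled: adjusted p of 0.05 or less), crosses the estimates with library totals, dashed lines the median of all genes under each scaling, and the triangle is the lower bound of Hspa1a against 3 counts; only Hspa5, Hspa1a and Hspa1b lie above 0 under both scalings.

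The chaperone lists were counted in Ypel4-/- mice in the same way. The endoplasmic reticulum list had 2 of 17 higher and 11 lower, the other Hsp90 proteins and co-chaperones 1 of 19 higher and 13 lower, the J-domain genes 10 of 32 higher and 14 lower, the Hsp70 and exchange factor list 3 of 18 higher and 6 lower, and the mitochondrial list 2 of 10 higher and 6 lower. The cytosolic chaperonin TRiC and its helper prefoldin had 3 of 14 higher and 6 lower in Ypel4+/+ and 3 higher and 9 lower in Ypel4-/- mice. With library totals, which shifted the median of all genes by -1.38 in Ypel4-/- mice, more list genes were called lower. TRiC and prefoldin then had 1 higher and 12 lower in each genotype. In Ypel4-/- mice the endoplasmic reticulum list had 0 and 14, the Hsp90 list 0 and 18 and the J-domain list 5 and 23. The Hsp70 list had 2 and 15 and the mitochondrial list 1 and 8. Over all genes, 15.5% of calls were higher with this scaling. Relative to the median of all genes, the lists' medians in Ypel4-/- mice changed little. That of the endoplasmic reticulum list was -1.04 with TMM and -1.05 with library totals, and that of the Hsp90 list -1.05 and -1.08. Within the TRiC and prefoldin list Vbp1, a prefoldin subunit, was highest in Ypel4+/+ mice (1.99, SE 0.13) and Pfdn1, another, was lowest (-1.79, SE 0.34). Only 3 of 10 small heat shock protein genes had enough counts to test, and of these Hspb6 fell in Ypel4+/+ mice (-1.62, SE 0.29) and in Ypel4-/- mice (-2.11, SE 0.26). Among the regulators in Ypel4-/- mice, 3 of 5 rose and Hsf1 fell (-1.18), and 7 of 9 immediate-early genes rose and 1 fell. The marker lists had 8 of 10 erythroid genes higher and 1 lower, 5 of 6 myeloid, 3 of 3 lymphoid and 1 of 3 megakaryocyte genes higher and none lower. With library totals, none of the 6 myeloid or 3 lymphoid genes was called, and 1 megakaryocyte gene was higher and 1 lower. The lists share some genes, such as Dnajb9 and Hyou1.

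**Figure D4:**
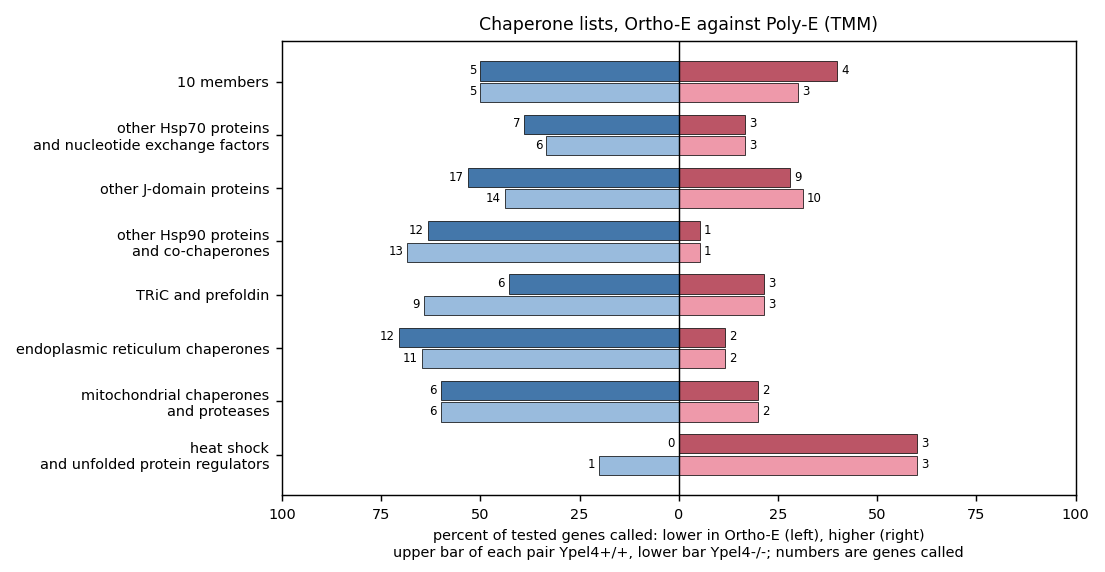
Percent of the tested genes of each chaperone list that were called lower (left) or higher (right) in Ortho-E than in Poly-E with TMM scaling, in Ypel4+/+ (upper bar) and Ypel4-/- mice (lower bar); the numbers are genes called. In both genotypes more genes were called lower than higher in every list except the regulators, which with library totals also had more genes lower.

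Ranked per kilobase of exon, the order of the genes differed between the populations. In Ypel4+/+ Poly-E the levels ran from Hsp90aa1 at 106 ± 9.83 CPM per kilobase (SD, n = 4) through Dnajb1 at 96.9 ± 9.22, Hspa5 at 66.4 ± 10.8 and Hspa8 at 56.1 ± 15.0 to Hsp90ab1 at 19.7 ± 1.33, with Hspd1, Hspa9, Hspe1 and Hspa1b at 4.12 or less and Hspa1a at 0. Hsp90aa1 and Dnajb1 overlapped, as did Hspa5 and Hspa8, while the other neighbours in this order did not. In Ypel4+/+ Ortho-E, Hspa5 was first at 255 ± 17.8 CPM per kilobase, with no overlap with Hsp90aa1 at 43.8 ± 7.40, and Dnajb1 (26.3 ± 3.08), Hsp90ab1 (26.2 ± 3.62) and Hspa8 (25.8 ± 8.95) overlapped each other in turn. Hspa1b at 3.22 ± 0.861 CPM per kilobase overlapped Hspd1 at 2.42 ± 0.308, and Hspa9, Hspa1a and Hspe1 were at 1.44 or less. The order by mean was the same in Ypel4-/- mice, except that Hspa1a was also above 0 in Poly-E. These levels leave out reads that map to copies elsewhere, so Hspa8 and Hsp90aa1 in particular may stand higher than shown.

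The comparison of genotypes asked whether loss of Ypel4 altered these genes within a population. In Poly-E, none of the 9 members tested was called by edgeR or DESeq2, and 1 had an unadjusted p under 0.05, where 0.00807% of all 12395 genes tested were called and 271 had an unadjusted p under 0.05. With the library number as a block, 4 genes in place of 1 were called and still no member. The largest difference with a narrow interval was that of Hsp90ab1, at 69.9, 83.8, 76.8 and 64.5 CPM in Ypel4-/- against 64.3, 54.6, 59.2 and 58.5 CPM in Ypel4+/+ Poly-E. Every Ypel4-/- library was above every Ypel4+/+ library, though the lowest exceeded the highest only narrowly, where 2.09% of all genes did not overlap and 1.26% were higher. The log2 difference was 0.32 (95% interval 0.09 to 0.54, adjusted p = 1.0 by edgeR), and the exact two-sided permutation test gave p = 0.0286, the smallest that 70 splits of 4 against 4 can give. Groups without overlap always give this p, so it only restates that separation, and it is not adjusted over the members. For Hspa5, Hspa8, Hspa9, Hsp90aa1, Hspd1 and Dnajb1 the log2 differences were -0.18 to -0.01, and their 95% intervals lay between -0.50 and 0.31. Hspe1 (0.67, 95% interval -0.25 to 1.59) and Hspa1b (-0.38, -1.84 to 1.08) had too few counts for a narrow estimate. The Poly-E libraries held 0 counts of Hspa1a in Ypel4+/+ mice and 6 in Ypel4-/- mice, too few to test.

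In Ortho-E, none of the 10 members was called by edgeR or DESeq2, and 2 had an unadjusted p under 0.05, where 0.0285% of all 10521 genes tested were called and 387 had an unadjusted p under 0.05. Hspd1 was at 4.50, 2.97, 2.63 and 5.40 CPM in Ypel4-/- and at 7.18, 5.71, 5.66 and 6.997 CPM in Ypel4+/+ Ortho-E, so every Ypel4-/- library was lower, where 2.35% of all genes did not overlap and 1.03% were lower. It was the only member of 10 without overlap. These values rest on 10, 8, 8 and 28 counts against 17, 10, 17 and 30 counts. The log2 difference was -0.67 (95% interval -1.32 to -0.03, adjusted p = 0.996 by edgeR), with an exact two-sided permutation p = 0.0286, again the smallest possible and fixed by the lack of overlap. Hsp90aa1 differed by -0.30 (95% interval -0.55 to -0.05, adjusted p = 0.996 by edgeR) and its groups overlapped, at 135, 127, 125 and 165 CPM in Ypel4-/- against 201, 189, 135 and 163 CPM in Ypel4+/+. Hsp90ab1, the member that stood apart in Poly-E, differed by -0.00 here (95% interval -0.28 to 0.27). The other 7 members differed by -0.44 to 0.21, and all their 95% intervals included 0. The 5 lymphoid markers summed to 14.8 to 20.3 CPM in Ypel4+/+ and 23.9 to 32.8 CPM in Ypel4-/- Ortho-E, with Cd3e at 0 in both, and their part in these values was not tested.

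**Figure D5:**
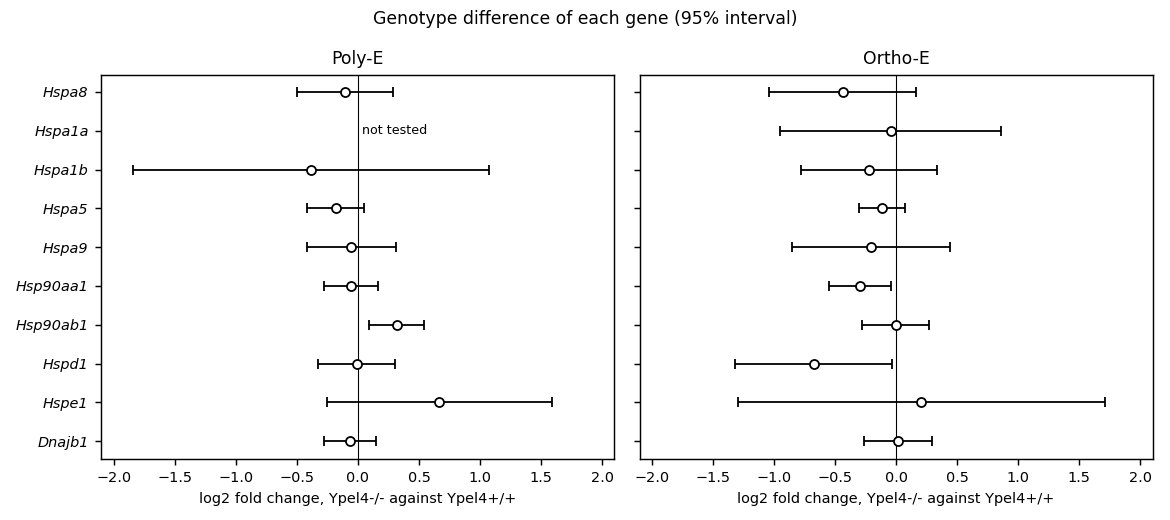
Log2 fold change of each chaperone gene between Ypel4-/- and Ypel4+/+ mice in Poly-E (left) and Ortho-E (right), by edgeR with TMM. Circles are estimates and bars 95% intervals; the intervals of Hsp90ab1 in Poly-E and of Hsp90aa1 and Hspd1 in Ortho-E leave out 0 before adjustment over all genes, and no member was called after it.

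Whether the difference between the populations itself differed between genotypes was tested as an interaction over all 16 libraries. No member of 10 was called by edgeR or DESeq2, 2 had an unadjusted p under 0.05, and 0.0% of the 13318 genes tested were called, with 364 at an unadjusted p under 0.05. The members with an unadjusted p under 0.05 were Hspa1a, whose term cannot be read as a fold because Ypel4+/+ Poly-E had 0 counts, and Hspd1, with an interaction of -0.67 (95% interval -1.33 to 0.00, adjusted p = 1.0 by edgeR). For Hspa5 the interaction was 0.05 (95% interval -0.29 to 0.39) and for Dnajb1 it was 0.07 (95% interval -0.31 to 0.45). A different response in the 2 genotypes was thus not detected for any member.

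Library-to-library variation within groups was described by correlation after each group's mean was subtracted, over 16 libraries that share depth and handling among genes, and no p is given. The 2 members that varied most alike were Hspa8 and Hsp90aa1 (r = 0.702), followed by Hspa9 and Dnajb1 (r = 0.65) and by the Hsp90 pair (r = 0.566). Hspa1a and Hspa1b had r = 0.544 on 69 and 231 counts in all. Outside the members, over the 4830 genes whose mean reached 10 CPM, the gene most like Hspa8 was Bud31 (r = 0.917), the gene most like Dnajb1 was Stt3b (r = 0.917) and the gene most like Hsp90ab1 was Ndufb10 (r = 0.911). The others were Casp9 for Hspd1 (0.905), Zeb1 for Hsp90aa1 (0.898), Btbd10 for Hspa9 (0.889) and Zcchc6 for Hspa5 (0.879). For the sparse genes Hspa1b and Hspe1, where counting error weighs most, these were Cyth3 (0.821) and Gm6563 (0.731). With a pseudocount of 2 the gene most like Hspa1b was Psmd4 (0.663) in place of Cyth3. Each is the highest of 4830 values.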

How the data were processed

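RNA from sorted erythroblasts was made into libraries with a kit that does not mark strand. The authors ran nf-core/rnaseq against GRCm38 and deposited raw counts per gene from featureCounts 1.6.4, which counted exon reads, left out multi-mapping and multi-gene reads, and did not normalize. Sample titles gave the group and library number. The members and lists were chosen with earlier results of these data known.

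The counts entered the quasi-likelihood test of edgeR 4.0.16 (R 4.3.3, robust, TMM). A gene was tested where its counts summed to 10 or more across a fit, and p-values were adjusted by Benjamini-Hochberg over all genes, with a threshold of 0.05. Errors are Wald errors with the quasi-dispersion. CPM use TMM over all 16 libraries. Permutation tests ran over all 70 splits, on log2 values with a pseudocount of 0.5 CPM. Depth was 2670173 to 12451234 counts, and a floor of 3 counts over a group bounded folds against 0, for counting error only. Named genes were the members, Ypel4, the called genes with the largest and smallest change of each list in Ypel4+/+ mice, and the gene most like each member (that of Hspa1a is not reported here); a few others are said to be chosen after their values were seen. The search covered 8 RefSeq promoters of 6 members, and transcripts came from GENCODE M21. Fits were tested on simulated data with few changed genes, where the share of false calls was above the threshold in each comparison simulated. Many of the smaller changes and some of the larger were missed, so a member that was not called may still differ. Unlike in the simulation, many genes differed between the populations, so its share of false calls need not hold there. Same-numbered libraries deviated together between populations in Ypel4+/+ mice (r = 0.487 to 0.651 over 4835 genes, against -0.496 to 0.434 for other numbers). Between genotypes in Poly-E, r was 0.233 to 0.642 for the same number. It was -0.581 to 0.601 for other numbers there, so the ranges overlapped. The labels name no shared mouse.

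Alternatives were DESeq2 1.42.0, its size factors in edgeR, library totals, filterByExpr, no filter, all 16 libraries in 1 fit, the library number as a replicate block, a term for libraries 1 and 2 against 3 and 4, globin genes left out, a pseudocount of 2, and each library left out in turn.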

Additional observations from a re-analysis of the deposited data

Results flagged for a closer look

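Within groups, 2 of 40 sets of 4 libraries held 1 library farther from the rest than Dixon's 95% limit for the gap over the range, and chance alone gives such a library in about 1 of 20 groups. Hspa5 in Ypel4+/+ Poly-E library 1 was at 348.8 CPM, with the next highest library at 262.8 CPM and a gap of 0.906 of the range. It was still below every Ortho-E library. Hspa1a in Ypel4-/- Ortho-E library 1 was at 0.8997 CPM, on 2 counts, with the next lowest library at 2.701 CPM and a gap of 0.871 of the range.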

How the results depend on the processing

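Of the 10 members, 8 or 9 were called between populations in Ypel4+/+ mice and 8 to 10 in Ypel4-/- mice under every alternative run, and none between genotypes or in the interaction. Counts over all genes were more sensitive. In Poly-E the genotype called 1 gene, and 2 with DESeq2, 4 with no filter, 3 with all 16 libraries in 1 fit, 4 with the replicate block, 3 with the term for libraries 1 and 2, and 1 to 2 with a library left out. In Ortho-E it called 3, and 5 with no filter and 15 with the replicate block, where the numbers were not found to pair the libraries (r = -0.135 to 0.339). The interaction called 0, and 1 with DESeq2, 1 with the replicate block, and 0 to 1 with a library left out. Among the members' calls, the replicate block changed that of Hsp90ab1 between populations in Ypel4-/- mice alone (r = 0.0859 to 0.565 between same-numbered libraries there). Hsp90ab1 was also called there with filterByExpr (0.3755), and Hspe1 with library totals (-1.7233). The causes of these differences between alternatives were not tested.

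Reversals of sign concerned log2 differences near 0 and Hsp90ab1. With library totals Hsp90ab1 was at -0.8458 in Ypel4+/+ and -1.1784 in Ypel4-/- mice between populations, and at 0.0348 between genotypes in Ortho-E, where it was also at 0.001 with no filter, 0.0035 with the replicate block and 0.0083 with the term for libraries 1 and 2. Hspe1 between populations in Ypel4+/+ mice was at 0.0863 with DESeq2, 0.1207 with its size factors, 0.0131 with the replicate block, 0.0117 with the term for libraries 1 and 2 and 0.0011 without globin genes. Between genotypes in Poly-E, library totals put Hsp90aa1 at 0.0002 and Hspd1 at 0.0387. With each library left out in turn, Hspe1 between populations in Ypel4+/+ mice ranged from -0.1489 to 0.3062. The genotype difference in Poly-E ranged from -0.2356 to 0.0322 for Hspa8, -0.1071 to 0.0702 for Hspa9 and -0.0731 to 0.0485 for Hspd1, and in Ortho-E from -0.2009 to 0.1338 for Hspa1a, -0.0714 to 0.0978 for Hsp90ab1 and -0.1136 to 0.0696 for Dnajb1. The interaction ranged from -0.3114 to 0.0061 for Hspa9, -0.0126 to 0.1714 for Hspa5, -0.0524 to 0.5149 for Hspa1b and -0.1019 to 0.2082 for Dnajb1.

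For the exact permutation tests, the log2 difference with a library left out ranged in Poly-E from -0.2342 to 0.04301 for Hspa8, -0.1463 to 0.04682 for Hspa9, -0.2175 to -0.06511 for Hspa5, 0.248 to 0.3732 for Hsp90ab1 and -0.06389 to 0.0387 for Hspd1, and in Ortho-E from -0.3059 to 0.2682 for Hspa1a, -0.1258 to 0.05172 for Hsp90ab1, -0.856 to -0.5509 for Hspd1 and -0.168 to 0.04399 for Dnajb1. The permutation p of Hsp90ab1 in Poly-E and of Hspd1 in Ortho-E was then 0.0286 to 0.0571, with few splits of 3 against 4 libraries. That of Hspa5 in Poly-E was 0.0286 to 0.257, at 0.0286 without Ypel4+/+ library 2, against 0.0571 with all libraries. With a pseudocount of 2 the highest likeness was 0.873 for Hspa9, 0.831 for Hspa1a, 0.663 for Hspa1b and 0.889 for Hspd1, and for Hspa1a and Hspa1b the most alike gene was then another one. Depth limits Hspa1a, Hspa1b and Hspe1, with 69, 231 and 94 counts over all libraries.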
